A study of Mus musculus with 2 samples.

Results

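S100a8, S100a9, Ngp, Camp, Ltf, Lcn2, Mmp8, Retnlg, G0s2 and Saa3 are 10 of the 32285 genes counted in single-cell RNA sequencing of mouse ovarian tumors. They were matched by symbol as genes of neutrophil granules and of alarmins, and all 10 were found. The tumors grew under the skin from SO, a mouse ovarian cancer line that lacks p53 and carries myc and H-ras, in female C57BL/6 mice 6 to 8 weeks old. WT mice were compared with tight skin (TSK) mice, which carry an inherited duplication within Fbn1, the gene of the matrix protein fibrillin-1, and live only as heterozygotes. Tumors of 4 mice of each genotype were pooled into 1 library, so a difference between the 2 libraries cannot be told apart from a difference between mice, tumors or preparations, and no test between genotypes was possible.

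Neutrophils mature in bone marrow, and each stage fills a different granule. Primary granule genes such as Mpo and Elane come first, and secondary granule genes (Ltf, Camp, Ngp and Lcn2) follow at the myelocyte stage. Transcripts of the collagenase Mmp8 and the secreted protein Retnlg are made later. Cells that reach a tissue have mostly stopped making the granule transcripts but keep S100a8 and S100a9, whose products pair as calprotectin, a metal-binding protein that acts as an alarmin when released. Lcn2 encodes an iron-siderophore carrier and Saa3 a serum amyloid A protein, and both are acute-phase genes that epithelial cells, fibroblasts or macrophages can also make. G0s2 encodes an inhibitor of the lipase ATGL.

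The promoters of 4 members are shown, because S100a8 and S100a9 were counted in the same class of cells, Lcn2 in neutrophil-like and fibroblast-like cells, and Saa3 in fibroblast-like and macrophage-like cells. Each line gives the 250 bases before the RefSeq start site on the strand of the gene (build GRCm38.p6), and capitals mark matches to the letters TTGCNNAA, a C/EBP motif, or GAGGAAG, a PU.1 motif, on either strand. S100a8 and S100a9 lie on chromosome 3 and are separated by 22596 bases, with S100a8 on the plus strand at chr3:90668821-90669070 and S100a9 on the minus strand at chr3:90695722-90695971. The Lcn2 window is chr2:32387740-32387989 and the Saa3 window chr7:46715677-46715926, both on the minus strand.
S100a8: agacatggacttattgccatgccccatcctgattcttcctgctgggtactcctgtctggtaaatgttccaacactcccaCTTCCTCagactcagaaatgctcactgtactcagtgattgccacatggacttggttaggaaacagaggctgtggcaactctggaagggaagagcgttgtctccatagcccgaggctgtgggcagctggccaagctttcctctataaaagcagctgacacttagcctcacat
S100a9: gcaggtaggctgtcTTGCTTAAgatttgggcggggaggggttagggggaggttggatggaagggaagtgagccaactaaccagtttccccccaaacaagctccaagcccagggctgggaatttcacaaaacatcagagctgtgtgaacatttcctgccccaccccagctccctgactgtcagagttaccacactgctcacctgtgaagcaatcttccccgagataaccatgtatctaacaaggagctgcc
Lcn2: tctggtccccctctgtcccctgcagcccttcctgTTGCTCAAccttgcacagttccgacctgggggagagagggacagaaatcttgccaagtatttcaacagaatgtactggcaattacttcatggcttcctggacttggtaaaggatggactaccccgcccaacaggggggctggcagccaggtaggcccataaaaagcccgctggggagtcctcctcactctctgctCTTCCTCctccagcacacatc
Saa3: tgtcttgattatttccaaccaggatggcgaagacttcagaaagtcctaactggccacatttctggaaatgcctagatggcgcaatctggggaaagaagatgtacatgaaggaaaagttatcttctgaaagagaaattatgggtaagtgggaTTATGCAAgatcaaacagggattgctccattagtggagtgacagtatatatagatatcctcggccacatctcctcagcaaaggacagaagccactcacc
All 10 members had a promoter in the RefSeq table of 300-base windows (250 bases before to 50 after the start). TTGCNNAA occurred in 7 of the 10 (S100a9, Ngp, Ltf, Lcn2, Mmp8, Retnlg and Saa3) and in 10.8% of 32851 promoters of all genes. GAGGAAG occurred in 3 of the 10 (S100a8, Lcn2 and Mmp8) and in 13.6% of all promoters. An NF-kB motif was in none of the 10 windows and in 5.81% of all promoters. In S100a8 the match began 171 bases before the start, in S100a9 236 bases, in Saa3 99 bases, and in Lcn2 216 bases for the C/EBP letters and 21 bases for the PU.1 letters. These are matches of letters and not measured binding.

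The deposited tables held raw UMI counts, each UMI standing for 1 captured RNA molecule, for 2332 WT and 4436 TSK barcodes. Cells with at least 200 genes, at least 500 UMIs and at most 10% mitochondrial UMIs were kept, except for 263 barcodes that both libraries listed. This left 1442 WT and 2961 TSK cells with 17070622 and 45661542 UMIs and medians of 7658.5 and 7302 UMIs per cell. Clusters were built without the members and named from marker genes. The neutrophil-like class held 36 WT cells (interval 1.75 to 3.44% of cells) and 227 TSK cells (interval 6.73 to 8.68%), and had 11 of 12 neutrophil markers, including Csf3r, the G-CSF receptor, and Cxcr2, a chemokine receptor. Ly6g, a surface marker of mouse neutrophils, had 0 UMIs in the WT cells and 18 UMIs in the TSK cells. Levels are counts per 1000000 UMIs of a class (CPM), and intervals are 95% and cover counting error only. Because the libraries were made from the 3′ end of the RNA, a CPM counts molecules and needs no correction for gene length.

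The class was also checked for RNA of other cells. T and NK markers had 0 UMIs in the WT neutrophil-like cells and 39 UMIs in the TSK cells, and cancer markers had 0 and 116 UMIs. All 12 macrophage markers were present in the TSK neutrophil-like cells, with 149 UMIs together, against 26 UMIs in WT. The neutrophil markers themselves summed to 1208 UMIs in WT and 4260 in TSK. The part of the foreign RNA in the levels below was not tested.

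S100a8 and S100a9 were the most abundant members in neutrophil-like cells of both libraries, and this class held nearly all of their UMIs. Over all kept WT cells Saa3 had more UMIs than the pair together (4791 against 3075). Of 3075 UMIs of the pair in WT, 2970 (96.6%, interval 95.9 to 97.2%) were in the 36 neutrophil-like cells. Of 29186 in TSK, 26989 (92.5%, interval 92.2 to 92.8%) were in the 227 neutrophil-like cells. Levels over all kept cells were taken per UMI of the whole library. Cancer-like cells held 20.03% of these UMIs in WT and 78.53% in TSK. The part of this unlike mix in the ratios over all kept cells was not tested. Over all kept cells S100a8 stood at 68.8 CPM in WT and 304.6 CPM in TSK, and S100a9 at 111.3 and 334.6 CPM. The log2 ratio of the pair, TSK over WT, was 1.83 (interval 1.77 to 1.88), while the median over all genes was 0.14. With the upper limits of 10000 UMIs and 10000 genes per cell that the methods state, it was 2.70.

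Differences of 2-fold between these libraries were common. In all kept cells, 8 of the 10 members had at least 20 UMIs, of which S100a8 and S100a9 were 2-fold or more higher in TSK and Ltf and Saa3 2-fold or more lower. Ltf had only 10 UMIs in WT and 11 in TSK, and its log2 interval (-2.66 to 0.11) leaves the direction open. With the stated upper limits, Ltf (0.29) and Saa3 (3.46) had positive log2 ratios instead. Of 17322 genes with at least 20 UMIs, 19.9% were 2-fold or more higher and 18.4% 2-fold or more lower. In neutrophil-like cells 6 of the 10 members had at least 20 UMIs, and 4 of these (S100a8, Lcn2, Mmp8 and Retnlg) were 2-fold or more higher in TSK, none lower. The background there was 26.6% higher and 11% lower of 3341 genes. A count of members past 2-fold must be read against these shares.

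**Figure D1:**
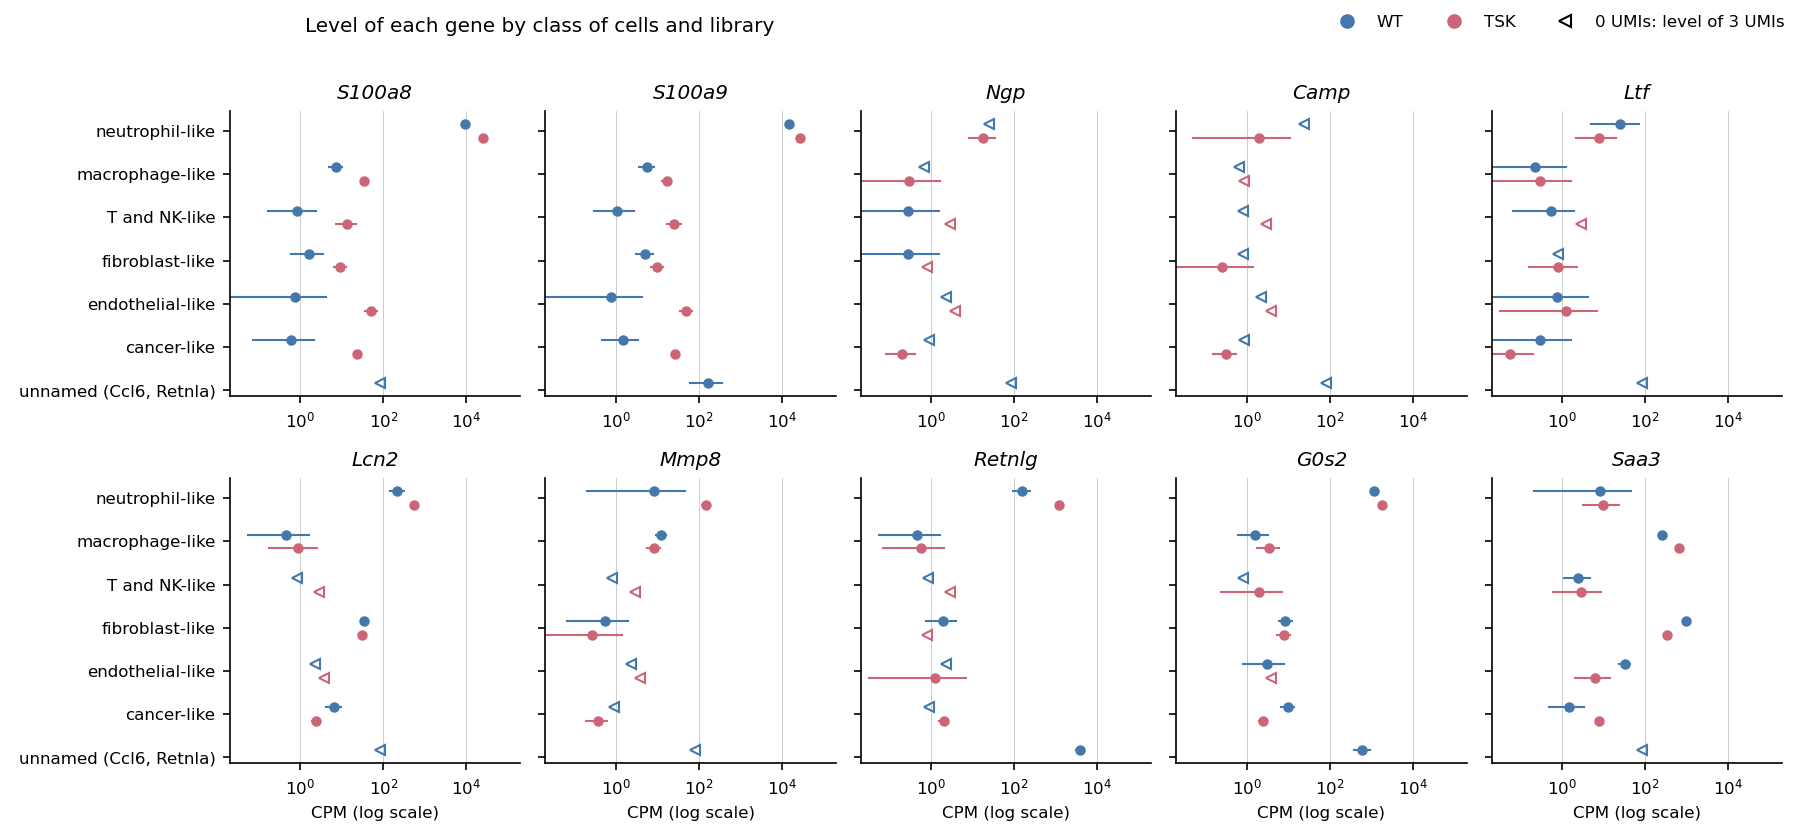
Level of each member in CPM (log scale) in 7 classes of cells, WT in blue and TSK in red, with 95% counting intervals and open triangles at the level of 3 UMIs where none was counted. S100a8 and S100a9 are highest in neutrophil-like cells of both libraries (9167 to 27829 CPM), Saa3 is highest in fibroblast-like and macrophage-like cells, and Retnlg is highest in an unnamed class found only in WT.

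Within neutrophil-like cells both alarmin genes were higher in TSK, S100a8 more than S100a9. S100a8 had 1130 UMIs (9167 CPM) in WT and 12852 UMIs (25299.7 CPM) in TSK, a log2 ratio of 1.46 (interval 1.38 to 1.55). S100a9 had 1840 UMIs (14927 CPM) and 14137 UMIs (27829 CPM), a log2 ratio of 0.90 (0.83 to 0.97), and there were 1.63 S100a9 UMIs per S100a8 UMI in WT and 1.10 in TSK. Of all genes tested in the class, 18.7% had a larger ratio than S100a8 and 28.4% a larger ratio than S100a9, and the median of all genes was 0.16.

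The cells of each library overlapped widely for this pair. The sum of S100a8 and S100a9 ran from 0 to 513 UMIs per cell in WT with a median of 24.5, and from 0 to 1407 UMIs in TSK with a median of 38. As a share of each cell's own UMIs, the median cell had 7782 CPM in WT and 22371 CPM in TSK. A cell with at least 1 UMI of the pair was found in 28 of 36 WT cells (77.8%) and 206 of 227 TSK cells (90.7%). In WT the 5 richest of 36 cells held 60.0% of the S100a8 UMIs, so the WT level rests on few cells. The 5 richest of 227 TSK cells held 16.7%. They are a smaller part of their class, so these shares do not compare how uneven the libraries were. Leaving out the richest cell of each library gave log2 ratios of 1.66 for S100a8 and 1.07 for S100a9. When each cell was thinned to 500 UMIs, S100a8 was seen in 61.1% of WT and 79.3% of TSK cells (unthinned 69.4% and 86.3%). Median depth was 3502 UMIs in the WT cells and 1943 in the TSK cells.

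**Figure D2:**
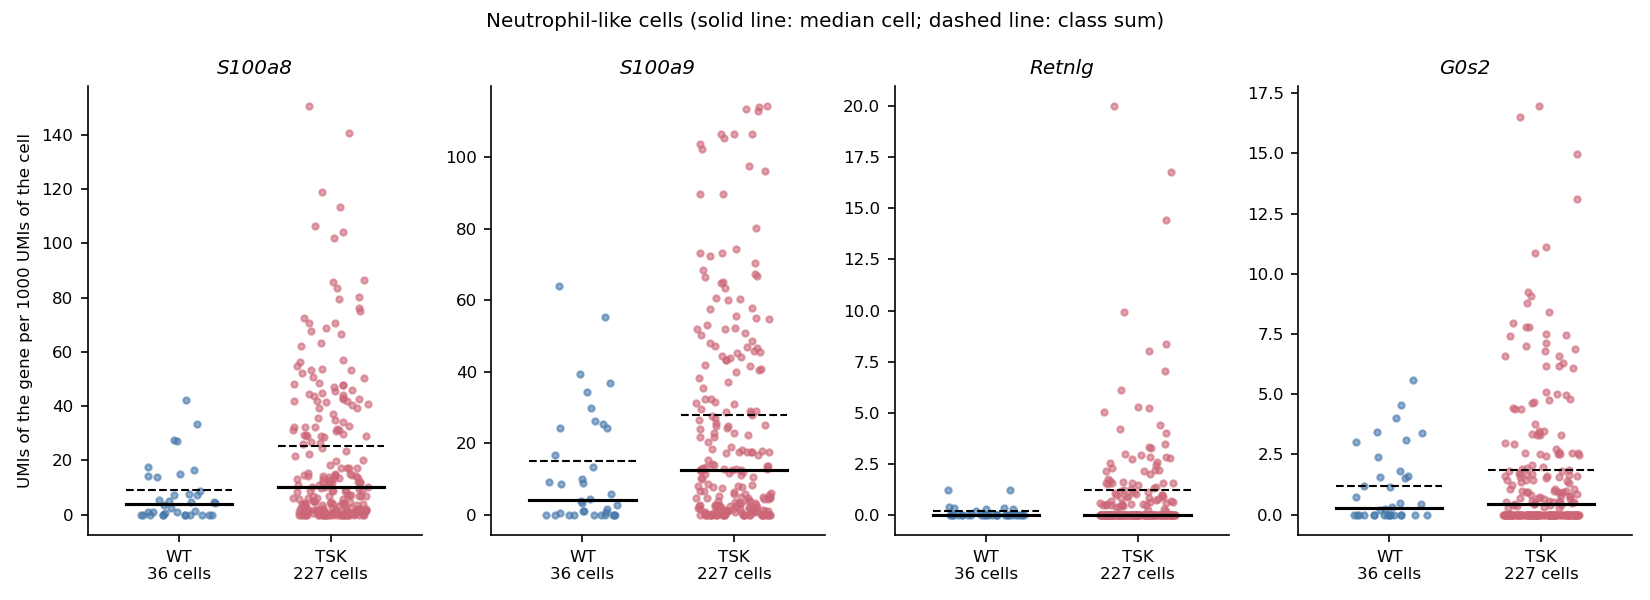
Each point is 1 neutrophil-like cell, plotted as UMIs of the gene per 1000 UMIs of that cell for S100a8, S100a9, Retnlg and G0s2, with a solid line at the median cell and a dashed line at the class sum. WT (36 cells) and TSK (227 cells) overlap, the median cell is higher in TSK for S100a8 and S100a9, and the median for Retnlg is 0 in both.

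S100a8 and S100a9 were also found at a low level in cells that should lack them, and this level differed between the libraries. In T and NK-like cells the pair had 7 UMIs (1.89 CPM, 7 of 520 cells, median depth 6668 UMIs) in WT and 41 UMIs (39.3 CPM, 36 of 364 cells, median depth 2625.5 UMIs) in TSK. After thinning to 500 UMIs, 2.75% of TSK T and NK-like cells held a UMI of the pair, against 2.16% of macrophage-like, 1.35% of fibroblast-like, 1.27% of cancer-like and 5.19% of endothelial-like cells (4 of 77). For S100a9 alone the fibroblast-like share (1.35%) was above that of T and NK-like cells (1.10%), as was the endothelial-like share for each gene (2.60% against 1.65% for S100a8). Shares at or below the T and NK-like one are not read as expression, and the endothelial-like share rests on 4 cells.

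In the macrophage-like TSK class the summed UMIs of the pair (122 of S100a8 and 59 of S100a9) had a different balance, set in large part by 1 cell. There were 0.48 S100a9 UMIs per S100a8 UMI in this class, against 1.10 in neutrophil-like and 1.93 in T and NK-like cells. S100a8 stood at 34.7 CPM in macrophage-like cells and 13.4 CPM in T and NK-like cells. A single macrophage-like cell held 55 of the 122 S100a8 UMIs of its class with 0 UMIs of S100a9, and it was also the cell richest in Saa3 (704 UMIs). Without it S100a8 stood at 19.1 CPM. The part of free RNA in the other macrophage-like cells was not tested.

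A few cells made up most of the rest. In TSK cancer-like cells 10 of 1412 cells held 90.6% of the 1820 S100a8 and S100a9 UMIs of that class. All 10 carried neutrophil marker UMIs, 179 together, whereas 16.8% of the other cancer-like cells had at least 1. Without these 10 cells the pair stood at 4.81 CPM in cancer-like TSK cells, against 2.05 CPM in WT. In endothelial-like TSK cells 1 cell held 75.3% of the pair's UMIs.

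The early granule genes other than Lcn2 were at the edge of detection. In neutrophil-like cells Ngp, a cathelin-related protein of secondary granules, had 0 UMIs in WT (3 UMIs would be 24.3 CPM) and 9 UMIs in TSK, in 5 of 227 cells. Camp, the cathelicidin, had 0 and 1 UMIs. Ltf, the iron-binding lactoferrin, had 3 UMIs in WT and 4 in TSK. Over all kept cells these 3 genes had 12 UMIs in WT and 41 in TSK, and 20 of the 41 were scattered over cancer-like cells, at 1 UMI per cell for Ngp and Camp. No fold is given for Ngp or Camp.

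Primary granule genes were as rare. Mpo, Elane, Prtn3, Ctsg, Ms4a3 and Prss57 together had 1 UMI in WT and 3 UMIs in TSK neutrophil-like cells. None of the 6 genes reached 20 UMIs in the class. At this depth a stage that makes primary granule genes was not detectable in either library. The secondary granule genes Ngp and Olfm4 had 0 UMIs in WT and 9 and 15 UMIs in TSK neutrophil-like cells, too few to compare.

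Lcn2 was the early gene with counts to compare. In neutrophil-like cells it had 27 UMIs (219.0 CPM, interval 144.4 to 318.7) in WT and 280 UMIs (551.2 CPM, interval 488.5 to 619.7) in TSK, a log2 ratio of 1.33 (0.76 to 1.96). It was seen in 10 of 36 WT cells (27.8%) and 66 of 227 TSK cells (29.1%), and after thinning in 2.78% and 16.3%. The richest WT cell held 12 of the 27 UMIs, and leaving out the richest cell of each library gave 1.98. Without cells holding 2 or more UMIs of another class's markers (27 WT and 178 TSK neutrophil-like cells stayed) it was 0.58. Per 1000 S100a8 and S100a9 UMIs, Lcn2 stood at 9.09 in WT and 10.4 in TSK.

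Per UMI of the whole library, Lcn2 did not differ beyond counting error over all kept cells. It stood at 10.95 CPM in WT and 10.67 CPM in TSK (log2 ratio -0.04, interval -0.29 to 0.21). The unlike cancer-like shares of library UMIs, given above, enter this ratio too. With the stated upper limits the ratio was 2.87. The class that held most Lcn2 UMIs differed. Fibroblast-like cells held 127 of 187 Lcn2 UMIs in WT (67.9%, interval 60.7 to 74.5%) and 120 of 487 in TSK (24.6%, interval 20.9 to 28.7%). Neutrophil-like cells held 14.4% in WT (interval 9.74 to 20.3%) and 57.5% in TSK (interval 53.0 to 61.9%). Within fibroblast-like cells the level was 34.0 CPM in WT and 31.0 CPM in TSK (log2 ratio -0.13, interval -0.50 to 0.24), carried by 15 of 168 and 28 of 297 cells. A single WT fibroblast-like cell held 58 of the 127 UMIs, so the WT share rests in large part on it. Leaving out the richest cell of each library gave a log2 ratio of 0.39. Over 10 alternatives this ratio ran from -0.40 to 1.31, and 6 kept its sign. T and NK-like cells had 0 Lcn2 UMIs in both libraries, which allows up to 0.81 CPM in WT and 2.87 CPM in TSK.

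**Figure D3:**
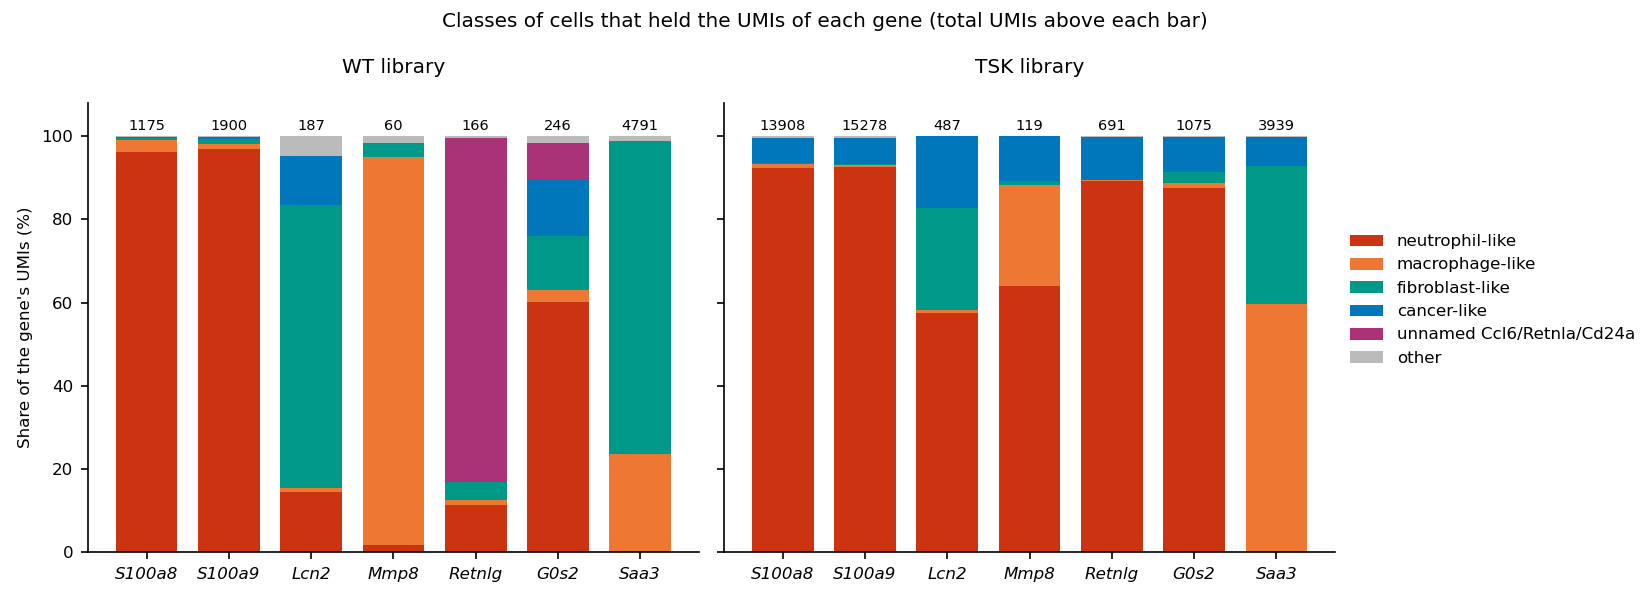
Share of each gene's UMIs (percent) by class of cells, WT left and TSK right, with the number of UMIs above each bar. The S100a8 and S100a9 bars are nearly all neutrophil-like in both libraries, while Lcn2, Mmp8 and Retnlg are mostly in other classes in WT and mostly neutrophil-like in TSK, and Saa3 is nearly absent from neutrophil-like cells.

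The late genes were higher in TSK neutrophil-like cells. Retnlg had 19 UMIs in 8 of 36 WT cells (154.1 CPM, interval 92.8 to 240.7) and 616 UMIs in 83 of 227 TSK cells (1213 CPM, interval 1119 to 1312), a log2 ratio of 2.98 (2.32 to 3.72). After thinning it was seen in 5.56% of WT and 20.3% of TSK cells, and 6.35% of all genes had a larger ratio. Mmp8 had 1 UMI in WT and 76 UMIs in 35 TSK cells (149.6 CPM), a log2 ratio of 4.20 with an interval from 1.68 to 9.53. With a single WT count its size is open within that interval.

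Counted together in neutrophil-like cells, the late genes made up more of the granule RNA in TSK. Early UMIs (Ngp, Camp, Ltf and Lcn2) numbered 30 in WT and 294 in TSK, and late UMIs (Mmp8 and Retnlg) 20 and 692. The ratio of early to late was 1.5 in WT and 0.42 in TSK, a log2 ratio of -1.82 (interval -2.74 to -0.93). An unnamed class found only in WT held 137 further late UMIs and 0 early UMIs and was left out. The direction of the ratio therefore depends on the border of the neutrophil-like class. Per 1000 S100a8 and S100a9 UMIs, late UMIs stood at 6.73 in WT and 25.6 in TSK. Lcn2 set most of the early sum. Without it the early UMIs were 3 and 14 and the log2 ratio -2.89 (interval -4.89 to -0.33), and with the gelatinase gene Mmp9 added to the late list (25 and 138 UMIs) it was -0.91.

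**Figure D4:**
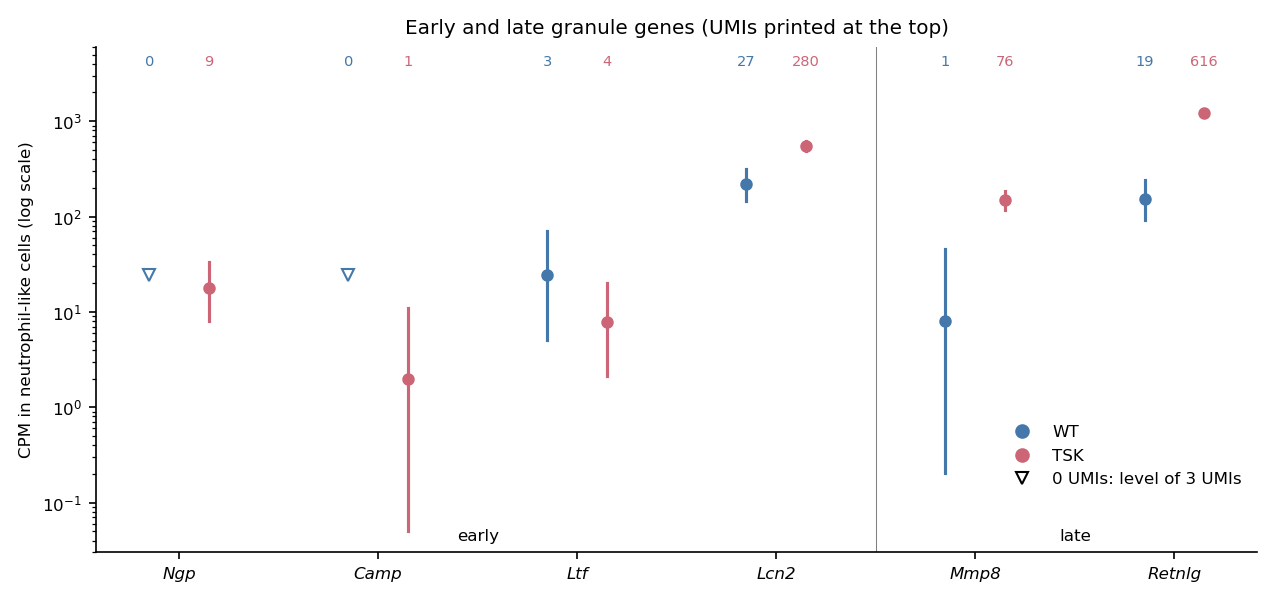
CPM (log scale) of 4 early and 2 late granule genes in neutrophil-like cells, WT in blue and TSK in red, with 95% counting intervals, open triangles at the level of 3 UMIs and the UMIs printed above. Ngp, Camp and Ltf have 0 to 9 UMIs, while Lcn2, Mmp8 and Retnlg have 27, 1 and 19 UMIs in WT and 280, 76 and 616 in TSK.

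Neutrophil-like cells that held Retnlg were also richer in several other members. In TSK the 83 cells with a Retnlg UMI had 38179.6 CPM of S100a8, against 10405 CPM in the 144 cells without, and 41054 against 12536 CPM of S100a9. Lcn2 stood at 862.6 against 191.0 CPM, Mmp8 at 223.9 against 63.7 CPM and G0s2 at 2390 against 1231 CPM, and all 9 Ngp UMIs were in the cells with Retnlg. Of the genes of mature neutrophils, Csf3r (682.8 and 721.7 CPM), Cxcr2 (389.1 and 352.3 CPM), Il1r2 (1325 and 1596 CPM), Cxcl2 (20006 and 21939 CPM) and Il1b, the cytokine IL-1β (4394 and 4572 CPM), differed less than those members. Ccl3 (1644.5 against 2899 CPM), Cd274 (543.3 against 832.0 CPM) and Ccl4 (2331 against 2959 CPM) were lower in the cells with Retnlg. Siglecf had 3 UMIs and 1 UMI. The cells with Retnlg were deeper, with a median of 2362 against 1705.5 UMIs. In WT the 8 cells with Retnlg had 10639 CPM of S100a8 and the other 28 cells 8595 CPM.

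Part of the late genes lay outside neutrophil-like cells. Over all kept cells the log2 ratio was 0.64 (interval 0.39 to 0.89) for Retnlg and -0.43 (interval -0.89 to 0.04) for Mmp8. Over 6 alternatives the Retnlg ratio ran from -0.79 to 1.52 and the Mmp8 ratio from -0.57 to 1.40. In WT 137 of 166 Retnlg UMIs (82.5%) were in a class of 46 cells that had no TSK cell, led by Ccl6, Retnla and Cd24a and too poor in markers to be named. Retnlg stood there at 3757 CPM (interval 3154 to 4441), in 21 of 46 cells, above its level in neutrophil-like cells of either library. These cells had a median of 691 UMIs, 0 UMIs of S100a8, 6 UMIs of S100a9 and 22 UMIs of G0s2. Neutrophil markers stood there at 740.3 CPM and macrophage markers at 1289 CPM. The same markers stood at 9800 and 210.9 CPM in WT neutrophil-like cells and at 373.6 and 6518 CPM in WT macrophage-like cells. Retnla, a resistin-like gene of the same family, had 163 UMIs in the unnamed class, and 5 of its cells held both genes. In macrophage-like cells, where Retnla was frequent (1031 UMIs in WT and 1807 in TSK), Retnlg had 2 UMIs in each library.

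Mmp8 was counted mainly in macrophage-like cells in WT, with 56 of its 60 UMIs, in 24 of 420 cells. Of these, 38 were in the macrophage-like cluster led by Lyz2, Tyrobp and H2-Aa. In TSK macrophage-like cells it had 29 UMIs, and the log2 ratio in that class was -0.58 (interval -1.28 to 0.09). In neutrophil-like cells Mmp8 stood at 8.11 CPM in WT and in macrophage-like cells at 12.3 CPM, and the counting intervals overlap.

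G0s2 differed less between the libraries than the late genes. In neutrophil-like cells it had 148 UMIs (1201 CPM, 20 of 36 cells) in WT and 941 UMIs (1852 CPM, 121 of 227 cells) in TSK, a log2 ratio of 0.63 (interval 0.37 to 0.89). Of all genes in the class 35.3% had a larger ratio. Neutrophil-like cells held 60.2% of its UMIs in WT and 87.5% in TSK, and the rest was mostly in fibroblast-like and cancer-like cells at 2.51 to 9.65 CPM. In WT the unnamed class also held 22 of the 246 G0s2 UMIs (8.94%), although it had only 36470 UMIs in all.

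Saa3 was not a neutrophil gene in these tumors. Neutrophil-like cells held 1 of 4791 Saa3 UMIs in WT and 5 of 3939 in TSK. Fibroblast-like cells held 75.2% in WT and 33.1% in TSK, and macrophage-like cells 23.6% and 59.5%. In T and NK-like cells, which should lack it, Saa3 was seen after thinning in 0.19% of WT and 0.27% of TSK cells, against 11.9% and 6.06% of fibroblast-like and 1.67% and 8.45% of macrophage-like cells.

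Its difference between the libraries had opposite directions in these 2 classes. In fibroblast-like cells Saa3 was lower in TSK, with 3601 UMIs (964.4 CPM, 46 of 168 cells) in WT and 1302 UMIs (336.9 CPM, 50 of 297 cells) in TSK, a log2 ratio of -1.52 (interval -1.61 to -1.43). In macrophage-like cells it was higher in TSK, with 1132 UMIs (249.2 CPM, 38 of 420 cells) in WT and 2344 UMIs (665.9 CPM, 100 of 556 cells) in TSK, a log2 ratio of 1.42 (interval 1.32 to 1.52). The medians over all genes were 0.27 and 0.20, and 97.9% of genes in fibroblast-like cells but 2.72% in macrophage-like cells had a larger ratio. In fibroblast-like cells 5 members had at least 20 UMIs, of which S100a8 was 2-fold or more higher and Saa3 2-fold or more lower, over a background of 13.5% higher and 5.09% lower. In macrophage-like cells 4 members had at least 20 UMIs, of which S100a8, S100a9 and Saa3 were 2-fold or more higher and none lower, over a background of 7.11% and 3.55%. S100a8 and S100a9 in these counts are not read as results about the 2 classes. The pair had a log2 ratio of 4.38 in T and NK-like cells, which should lack it. In TSK 1 fibroblast-like cell held 56.2% of the pair's UMIs of its class.

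The fibroblast-like difference lay in the deepest cells and turned with the UMI limit. In WT 3599 of the 3601 fibroblast-like Saa3 UMIs were in the 133 cells with over 10000 UMIs (1005 CPM), and 2 were in the 35 shallower cells (13.2 CPM). In TSK 1211 UMIs were in the 169 deeper cells (385.0 CPM) and 91 in the 128 shallower cells (126.5 CPM). The log2 ratio was -1.38 (interval -1.48 to -1.29) in the deeper cells and 3.26 (interval 1.36 to 6.32) in the shallower ones. With the stated limits on UMIs and genes applied before clustering, the fibroblast-like ratio was 3.28 and the ratio over all cells 3.46, in place of -1.70. In macrophage-like cells Saa3 was higher in TSK on both sides of that limit, with log2 ratios of 3.29 and 1.47. Without cells holding another class's markers (94 WT and 210 TSK macrophage-like cells stayed) that class had 0.54.

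Few cells carried Saa3. The 5 richest fibroblast-like cells held 60.1% of the WT and 63.4% of the TSK UMIs, and the richest macrophage-like cell held 463 of 1132 WT and 704 of 2344 TSK UMIs. Without the richest cell of each library the log2 ratios were -1.63 and 1.66. By cluster, Saa3 was highest in WT in the fibroblast-like cluster led by Col1a2, Col1a1 and Col3a1, at 1194 CPM, and in TSK in the macrophage-like cluster led by Arg1, C1qa and C1qb, at 790.0 CPM. That fibroblast-like cluster made up 135 of 168 WT and 192 of 297 TSK cells of its class. The class also held a cluster led by Acta2, Postn and Tagln (21 WT and 65 TSK cells) that met the marker rule for mural cells too. The part of this mix in the Saa3 ratio was not tested. The macrophage-like cluster led by Ccl8, C1qa and Mrc1 had 79.6 CPM in WT and 689.3 CPM in TSK. In TSK cancer-like cells Saa3 had 280 UMIs (7.81 CPM) in 57 of 1412 cells, and after thinning it was seen in 0.57% of them.

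**Figure D5:**
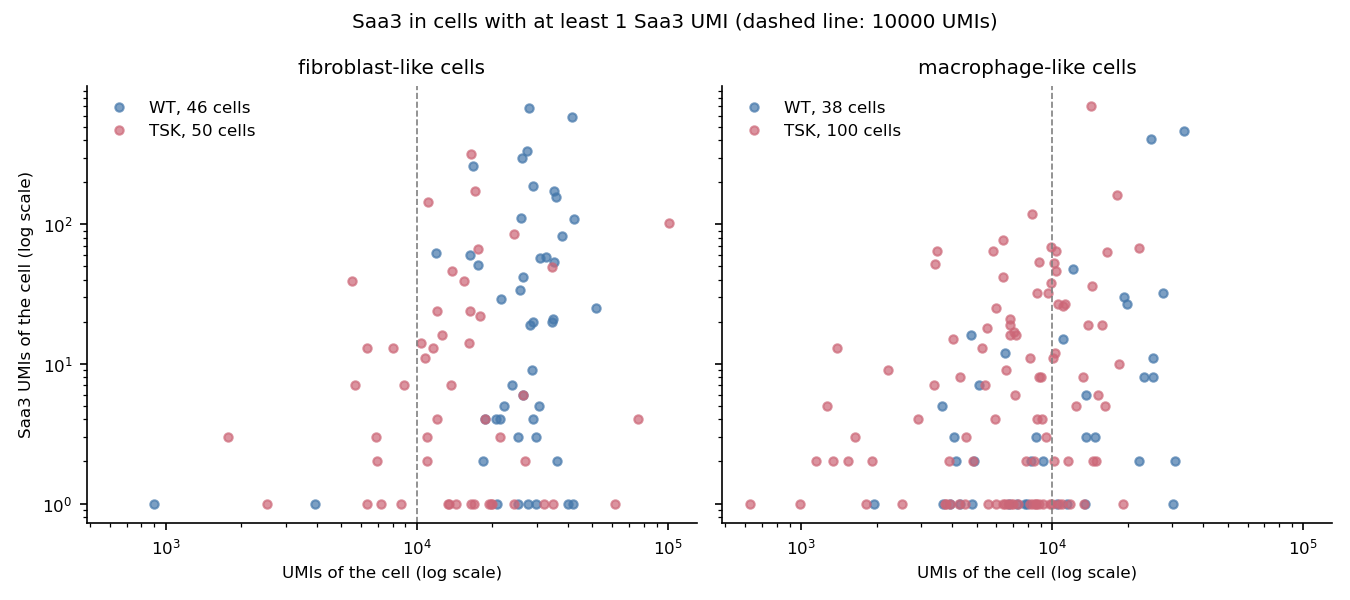
Each point is 1 cell with at least 1 Saa3 UMI, plotted by the cell's UMIs (x, log scale) and its Saa3 UMIs (y, log scale), fibroblast-like cells left and macrophage-like cells right, WT in blue and TSK in red. In fibroblast-like WT cells 44 of 46 points lie beyond the dashed line at 10000 UMIs, while macrophage-like TSK cells with Saa3 lie on both sides of it.

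The related acute-phase gene Saa1 was counted in fibroblast-like cells at 52 UMIs (13.9 CPM) in WT and 5 UMIs (1.29 CPM) in TSK, a log2 ratio of -3.43 (interval -5.11 to -2.11), and Saa2 had 6 and 0 UMIs there. Neither gene was counted in neutrophil-like cells.

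Among 10 other granule genes, 5 had at least 20 UMIs in neutrophil-like cells, of which 2 were 2-fold or more higher in TSK and none lower, with a median log2 ratio of 0.69. The background in the class was 26.6% higher and 11% lower, and with 5 genes the count is not read as a difference from it. Wfdc21 had 11 UMIs (89.2 CPM) in WT and 354 UMIs (696.9 CPM) in TSK, and Pglyrp1, a peptidoglycan-binding protein, had 4 UMIs (32.5 CPM) and 86 UMIs (169.3 CPM). Slpi, a protease inhibitor, Mmp9 and Hp, the gene of haptoglobin, had log2 ratios of 0.53, 0.42 and 0.69. Olfm4, a secondary granule gene, had 0 UMIs in WT and 15 UMIs in TSK.

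Genes of mature neutrophils were lower in TSK or within 2-fold. Of 9 genes, 8 had at least 20 UMIs in neutrophil-like cells, none was 2-fold or more higher and 3 were 2-fold or more lower, with a median log2 ratio of -0.34. Among all 3341 genes tested in the class, 26.6% were 2-fold or more higher and 11% lower. The chemokine genes Ccl3 (4592 CPM in WT and 2226 CPM in TSK) and Ccl4 (7277 and 2622 CPM) and the PD-L1 gene Cd274 (1849.7 and 677.2 CPM) were the 3 lower ones. The 28 WT cells without Retnlg held 461 Ccl3 and 656 Ccl4 UMIs. Among these, 1 cell had 91 and 159 UMIs and another 112 and 138, so the WT levels of both chemokine genes rest in part on few cells. Csf3r stood at 884.3 and 700.8 CPM and Il1b at 5346 and 4476 CPM, while the chemokine gene Cxcl2 was higher in TSK, at 13370 and 20902 CPM. Csf3r, Cxcr2 and Il1r2 were also markers that named the class, and Cxcl2, Ccl3 and Il1b were among its leading genes. The genes of this list were not left out of the clustering, so their levels partly reflect how the cells were chosen.

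Transcription factors of granulocyte development and receptors of the secreted proteins did not pass 2-fold in neutrophil-like cells. Of 6 factors, 3 had at least 20 UMIs in the class, with a median log2 ratio of -0.06. Cebpe, the factor of secondary granule genes, had 1 UMI in each library, Gfi1 had 1 and 0 UMIs, and Cebpb stood at 2491 CPM in WT and 2386 CPM in TSK. Of 9 receptors, 4 had at least 20 UMIs, with a median of 0.30, and none was 2-fold or more higher or lower, over a background of 26.6% higher and 11% lower. Tlr4, a receptor of calprotectin, stood at 259.6 and 387.8 CPM, and Slc22a17, a receptor of the LCN2 protein, had 0 UMIs in neutrophil-like cells of both libraries and 33 and 58 UMIs over all cells.

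The genes most like S100a8 and S100a9 across 6 classes in 2 libraries (12 values of log2(CPM + 1), among 13456 genes) were Sesn2 (Pearson r = 0.978), Stfa2l1 (r = 0.961), Nktr (r = 0.956), Wfdc21 (r = 0.955) and Zfp961 (r = 0.932). For the early sum they were Rab15 (r = 0.973), Mmp9 (r = 0.941), Ttc21a (r = 0.933), Abhd10 (r = 0.929) and Spidr (r = 0.928). For Saa3 they were Tppp3 (r = 0.933), Ccl8 (r = 0.926), C4b (r = 0.913), Apba1 (r = 0.913) and Dapk1 (r = 0.913). The 12 points share 2 libraries and differ in depth, and Stfa2l1 was itself among the markers of the neutrophil-like class, so these values are descriptions.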

How the data were processed

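Tables of raw UMI counts per gene and cell were deposited by the authors, made with Cell Ranger (7.1.1 in the submitters' notes, 7.1.0 in the file headers) on mm10 from 10x 3′ libraries of dissociated tumors after red cell lysis and dead cell removal, with no sort. From these counts, cells with at least 200 genes, 500 UMIs and at most 10% mitochondrial UMIs were kept, and 263 barcodes listed in both libraries were removed. Totals of kept cells were 17070622 (WT) and 45661542 (TSK) UMIs. Counts per 10000, 2000 variable genes, 30 principal components and 20 neighbours gave 20 Leiden clusters (resolution 1, leidenalg 0.10.2, igraph 0.11.9, scikit-learn 1.9.0, Python 3.11.15, scipy 1.17.1). The members, the other granule genes, Saa1, Saa2 and sex genes (33 in all) and mitochondrial genes were left out of the clustering. A class was named "X-like" where at least 3 of its markers were in 10% of a cluster's cells at 2 times the median cluster and 1 was among 50 leading genes. Doublets were left in and no caller was run, and cells with another class's markers were left out as an alternative. Other alternatives changed the limits on UMIs, genes and mitochondrial share, the shared barcodes, the clustering, the scaling and the lists. Ratios are TSK over WT from UMI sums, with exact Poisson, Clopper-Pearson and conditional binomial intervals. The Clopper-Pearson and conditional intervals were tested on simulated counts drawn from binomial and Poisson models. Uneven spread between cells was not simulated, so that test does not cover it. PCR duplicates were collapsed by UMI, and intervals and floors (3 counts) cover counting error only. Named genes were all 10 members, the genes of the other lists, and the 5 genes most like each sum. The members and lists were chosen with earlier results of these data known. With 1 library per genotype no p-value was computed.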

Additional observations from a re-analysis of the deposited data

Results flagged for a closer look

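The log2 ratio of Saa3 (TSK over WT) was higher in macrophage-like than in fibroblast-like cells by 2.94, because Saa3 was higher in TSK in the first class and lower in the second. The difference was not tested, since each genotype had 1 library, and it did not hold with the stated upper limits, where both ratios were positive (3.29 and 3.28). Barcodes that failed the filter on genes, UMIs or mitochondrial share, which no comparison used, also held S100a8 and S100a9. In WT 627 such barcodes held 523 UMIs of the pair (503.6 CPM) and in TSK 1212 barcodes held 2021 UMIs (898.6 CPM), against 180.1 and 639.2 CPM in kept cells.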

How the results depend on the processing

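No paired analysis was possible because each genotype had 1 library, so no replicate could be left out either. Of 173 alternative values of 20 log2 ratios, 159 kept their sign, and 13 ratios kept it under every alternative run. With at most 10000 UMIs and 10000 genes per cell, S100a8 and S100a9 had log2 ratios of 2.70 over all cells and 1.24 in neutrophil-like cells, Saa3 had 3.29 in macrophage-like cells and the reversed values 3.28 in fibroblast-like (35 WT and 131 TSK cells) and 3.46 over all cells, and Ltf over all cells reversed to 0.29. The neutrophil-like share of the pair was then 99.4% in WT and 96.9% in TSK. A 20% mitochondrial limit gave 1.74 and 1.06 for the pair over all and neutrophil-like cells and 93.3% for its TSK share. Keeping shared barcodes gave 2.05 for the pair over all cells and -1.38 for fibroblast-like Saa3. Assigning each cell alone gave 1.55 for the neutrophil-like pair and 1.31 and -1.72 for macrophage-like and fibroblast-like Saa3. Without cells holding another class's markers these were 1.04, 0.54 and -1.79, and the shares 99.7% and 99.5%. Scaling by the median gene ratio gave 1.69 and 0.98 for the pair and 1.22 and -1.79 for Saa3. Equal weight for each cell gave 2.80 for the pair over all cells and 1.93 and -1.40 for Saa3. Chosen after seeing the data, leaving out the richest cell gave 2.02 and 1.31 for the pair, 92.1% for its TSK share and 1.66 and -1.63 for Saa3, and neutrophil-like cells of at most 10000 UMIs gave 1.24. Of genes in neutrophil-like cells, 888 were 2-fold or more higher and 368 lower. The first count was 591 with the upper limits, 518 without cells of mixed markers and 320 at a minimum of 50 UMIs, where the second was 205. The early to late ratio moved from -1.82 to -2.89 without Lcn2 and -0.91 with Mmp9. The causes were not tested. The 36 WT neutrophil-like cells limit the precision, and genes with 3 UMIs or fewer there could not be compared.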

Other observations

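Some granule genes of the wider list were counted mainly in other cells. Chil3, a chitinase-like protein of granules and of macrophages, had 4260 UMIs (937.9 CPM) in WT and 578 UMIs (164.2 CPM) in TSK macrophage-like cells, a log2 ratio of -2.51 (interval -2.64 to -2.39). Cd177, a neutrophil surface protein, had 46 and 9 UMIs in the same class (log2 ratio -1.99, interval -3.20 to -0.94). Hp stood there at 44.9 CPM in WT and 40.1 CPM in TSK (log2 ratio -0.17, interval -0.49 to 0.15). In TSK cancer-like cells Retnlg had 72 UMIs in 12 of 1412 cells, 33 of them in 1 cell, and Mmp8 had 13 UMIs in 3 cells.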
